A study of Mus musculus with 2 samples.

Results

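Astrocytes are known by a small set of genes for glutamate uptake, water transport, cell-to-cell coupling, the intermediate filament cytoskeleton and the pericellular matrix, and 9 of these genes are described here. They are the glutamate transporters Slc1a2 and Slc1a3, the water channel Aqp4, the connexins Gja1 and Gjb6, the intermediate filament genes Gfap and Vim, and the matrix genes Tnc and Fbln5. The genes were taken by symbol, and each symbol had 1 row among the 55357 genes of both deposited tables. The list was drawn up with the level of each gene by class and library in these data known, so it counts as selected on those values, which are given as a description.

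The data were 2 single-nucleus RNA libraries of mouse hippocampus, each from Bcas2F/F mice, in which the splicing factor gene Bcas2 is flanked by loxP sites. The knockdown-labelled library came from mice injected with AAV2/9-Syn-cre, an adeno-associated virus whose synapsin promoter drives Cre in neurons, and its genotype label reads Bcas2 knockdown. The control library came from mice injected with AAV-vehicle. Its genotype label reads WT, although its title names the same floxed mice. The sources used here give no age, no number of mice and no time after injection. With 1 library per group no difference below has a replicate check.

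Slc1a2 (GLT-1) and Slc1a3 (GLAST) clear glutamate from the synaptic cleft into astrocytes, and Aqp4 sits in the endfeet that astrocytes place on blood vessels. Gja1 (connexin 43) and Gjb6 (connexin 30) form the gap junctions through which astrocytes share ions and small molecules. Gfap and Vim form intermediate filaments, and a rise of Gfap is the usual sign of a reactive astrocyte. Tnc encodes tenascin-C, a matrix glycoprotein of developing and injured tissue, and Fbln5 encodes fibulin-5, an elastic fibre protein that is also on a widely used list of genes induced in neuroinflammatory reactive astrocytes.

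The knockdown-labelled library held 90594923 UMIs (unique molecular identifiers, the counted molecules) in 16693 barcodes and the control 41781481 UMIs in 12621, and 12383 and 11197 nuclei were kept. Bcas2 itself was at 40.7 CPM (counts per 1000000 UMIs of the nuclei or class) in the kept knockdown-labelled nuclei and 30.7 CPM in the control nuclei, and in astrocyte-like nuclei at 36.6 and 14.8 CPM, so its level was not lower in the library labelled knockdown. Counts from a 3' kit need not lie in the deleted part of the gene, which the labels do not name, so this checks neither the label nor the deletion. Every direction below is therefore of the library as labelled. Both libraries held male and female nuclei, and 56 barcode sequences occurred in both libraries. Oligodendrocyte-like nuclei were 16.8% of the kept knockdown-labelled nuclei and 63.2% of the control nuclei as recovered, and the filter removed 3264 and 93 barcodes. Differences in tissue, nuclei recovery and filtering cannot be told apart in these shares. Of 30 clusters, 6 stayed unnamed, among them those nearest to dentate granule and CA pyramidal neurons.

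Astrocyte-like nuclei formed 1 cluster of 549 knockdown-labelled nuclei (median 2776 UMIs) and 667 control nuclei (median 3453 UMIs). The 9 genes were left out of the clustering and of the naming markers. All 18 naming markers of astrocytes had UMIs in both libraries, and their summed level was 7414 CPM in the knockdown-labelled and 8351 CPM in the control library. Some RNA of other cell types in this class differed between the libraries. The synaptic vesicle gene Syt1 was at 463 CPM in the knockdown-labelled and 54.3 CPM in the control astrocyte-like nuclei, and the synaptic membrane gene Snap25 at 293 and 29.3 CPM. Syt1 was also at 595 and 53.9 CPM in oligodendrocyte-like and at 678 and 90.3 CPM in microglia-like nuclei. In subiculum or cortex excitatory-like nuclei it was at 3438 and 3556 CPM. In astrocyte-like nuclei the summed neuron markers were at 2091 and 2067 CPM for subiculum or cortex excitatory and 1070 and 1098 CPM for GABAergic neurons. For striatal medium spiny neurons the sum was at 645 and 1506 CPM. The first list holds Rorb, a leading gene of the astrocyte-like cluster. The striatal list holds Pde10a and Ppp1r1b, which were among the leading genes of astrocyte-like subclusters. The excitatory and striatal sums are thus no measure of neuronal RNA in this class. The summed markers of dentate granule neurons were at 253 and 237 CPM, of CA1 pyramidal neurons at 221 and 170 CPM and of CA3 pyramidal neurons at 223 and 203 CPM. These and the GABAergic sum did not differ between the libraries to the extent that Syt1 and Snap25 did. In the same nuclei the summed level of 11 oligodendrocyte markers was 509 and 2171 CPM, and none of those markers was at 0.

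In astrocyte-like nuclei, Fbln5 was higher and Tnc lower in the knockdown-labelled library, and the other 7 genes lay within 1.5-fold of the control. Among all 9557 genes with at least 50 UMIs in this class over both libraries, 14.2% were at least 1.5-fold higher and 6.51% at least 1.5-fold lower, against 1 of 9 and 1 of 9 here. Past 1.5-fold in either direction were 20.7% of those genes, so the count of called genes among the 9 is near that of the class as a whole. The median log2 ratio of all those genes was 0.04. A ratio above 1 means a higher level in the knockdown-labelled library, and the intervals of levels and ratios are exact 95% intervals that cover counting error only.

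**Figure D1:**
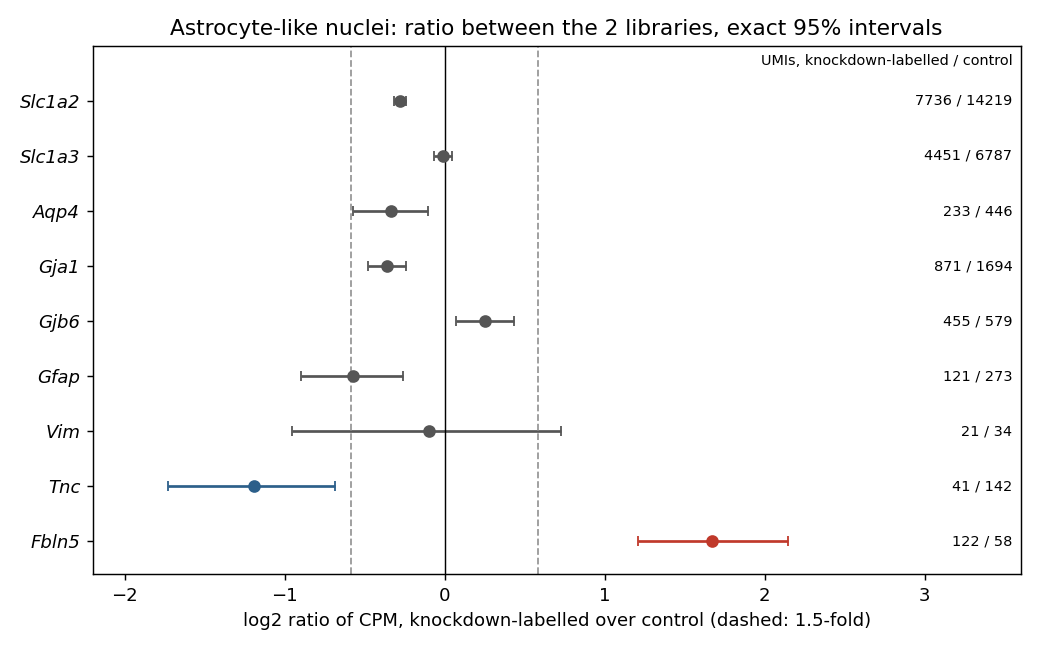
Log2 ratio of CPM between the knockdown-labelled and the control library in astrocyte-like nuclei for each of the 9 genes, with exact 95% intervals (bars), the 1.5-fold lines (dashed) and the UMIs behind each ratio. Fbln5 lies at 1.67 and Tnc at -1.19, and the points of the other 7 genes lie between the dashed lines.

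The glutamate transporters differed in how they stood between the libraries. Slc1a2 was at 4968 CPM (7736 UMIs) in the knockdown-labelled and 6030.2 CPM (14219 UMIs) in the control astrocyte-like nuclei. The log2 ratio was -0.28 (interval -0.32 to -0.24), a difference inside 1.5-fold. Slc1a3 was at 2858 CPM in the knockdown-labelled and 2878 CPM in the control nuclei, a log2 ratio of -0.01 (-0.07 to 0.04). The interval of Slc1a2 excluded 0 and that of Slc1a3 held it.

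The water channel Aqp4 was at 149.6 CPM (233 UMIs) in the knockdown-labelled and 189 CPM (446 UMIs) in the control nuclei, a log2 ratio of -0.34 (-0.57 to -0.11). The connexins pointed in opposite directions. Gja1 was at 559 CPM in the knockdown-labelled and 718 CPM in the control nuclei (log2 ratio -0.36, -0.48 to -0.24). Gjb6 was at 292 CPM in the knockdown-labelled and 246 CPM in the control nuclei (log2 ratio 0.25, 0.07 to 0.43). Both differences stayed inside 1.5-fold, and neither interval held 0.

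Of the intermediate filament genes, Gfap was at 77.7 CPM (121 UMIs) in the knockdown-labelled and 116 CPM (273 UMIs) in the control nuclei. Its log2 ratio of -0.58 (-0.90 to -0.26) is 1.49-fold lower and just short of the 1.5-fold line. A Gfap UMI was found in 16.4% of knockdown-labelled and 24.6% of control astrocyte-like nuclei, and in 0.480% and 0.763% of oligodendrocyte-like nuclei (median 1969 and 2320 UMIs). With each nucleus thinned to 1000 UMIs, which kept 544 and 664 astrocyte-like nuclei, the shares were 7.35% and 9.04%, and 0.289% and 0.368% in the oligodendrocyte-like nuclei. Vim, the filament of immature and vascular cells, was at 13.5 CPM and 14.4 CPM from 21 and 34 UMIs, and its log2 ratio of -0.10 had an interval of -0.96 to 0.73, so a difference of 1.5-fold in either direction was not detectable at this depth. Gfap was thus not above the control in this class, and Vim could not be placed.

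The matrix genes held both calls. Tnc was at 26.3 CPM (41 UMIs, interval 18.9 to 35.7) in the knockdown-labelled and 60.2 CPM (142 UMIs, 50.7 to 71.0) in the control nuclei. The 2 intervals did not overlap, and the level was 2.29-fold lower (log2 ratio -1.19, -1.73 to -0.68). Fbln5 was at 78.3 CPM (122 UMIs, 65.1 to 93.5) in the knockdown-labelled and 24.6 CPM (58 UMIs, 18.7 to 31.8) in the control nuclei. These intervals did not overlap either, and the level was 3.18-fold higher (log2 ratio 1.67, 1.21 to 2.15). Among the 4263 genes with 100 to 300 UMIs in this class, the depth of both genes, 19.0% were past 1.5-fold, 2.46% had a ratio at least that of Fbln5 and 1.10% a ratio at or below that of Tnc. Both genes were listed with their levels in these data known, so these shares are a description and no test of either gene. A Fbln5 UMI was found in 14.9% of knockdown-labelled and 6.90% of control astrocyte-like nuclei, and after thinning in 6.80% and 2.11%. In oligodendrocyte-like nuclei the share with a Fbln5 UMI was 0.336% and 0.254%, and after thinning 0.241% and 0.0849%.

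Among the named classes of the control library, 7 of the 9 genes had their highest level in astrocyte-like nuclei, and Vim and Fbln5 had it in endothelial-like nuclei. Slc1a2 went from 6030.2 CPM in control astrocyte-like nuclei to 524 CPM in the 29 ependymal-like nuclei (interval 400.2 to 675) and 364 CPM in oligodendrocyte precursor (OPC)-like nuclei. Slc1a3 was next highest in ependymal-like nuclei, at 1594 CPM in the knockdown-labelled and 1906 CPM in the control library, and then in fibroblast-like nuclei. Gjb6 was at 190.0 CPM and 226 CPM in fibroblast-like nuclei and was not detected in the 24 and 29 ependymal-like nuclei, where 3 UMIs would be 40.9 and 26.2 CPM. Gja1 was also present in fibroblast-like nuclei, at 121 CPM and 166 CPM.

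Vim was highest in endothelial-like nuclei, at 387 CPM (55 UMIs) in the knockdown-labelled and 174 CPM (43 UMIs) in the control library. Ependymal-like nuclei followed with 123 CPM and 69.9 CPM from 9 and 8 UMIs. Gfap in ependymal-like nuclei was at 136 CPM and 43.7 CPM from 10 and 5 UMIs (intervals 65.3 to 251 and 14.2 to 102), so that in the knockdown-labelled library its interval overlapped that of the astrocyte-like nuclei. Tnc was also found in OPC-like nuclei, at 15.6 CPM and 20.4 CPM. Fbln5 had vascular levels as well, 112 CPM and 44.5 CPM in endothelial-like nuclei and 72.5 CPM and 33.8 CPM in fibroblast-like nuclei. It was at 243 CPM (15 UMIs) and 306 CPM (43 UMIs) in an unnamed cluster of 8 and 20 nuclei led by Sag and Tph1, a photoreceptor-type arrestin and the first enzyme of serotonin synthesis outside neurons.

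**Figure D2:**
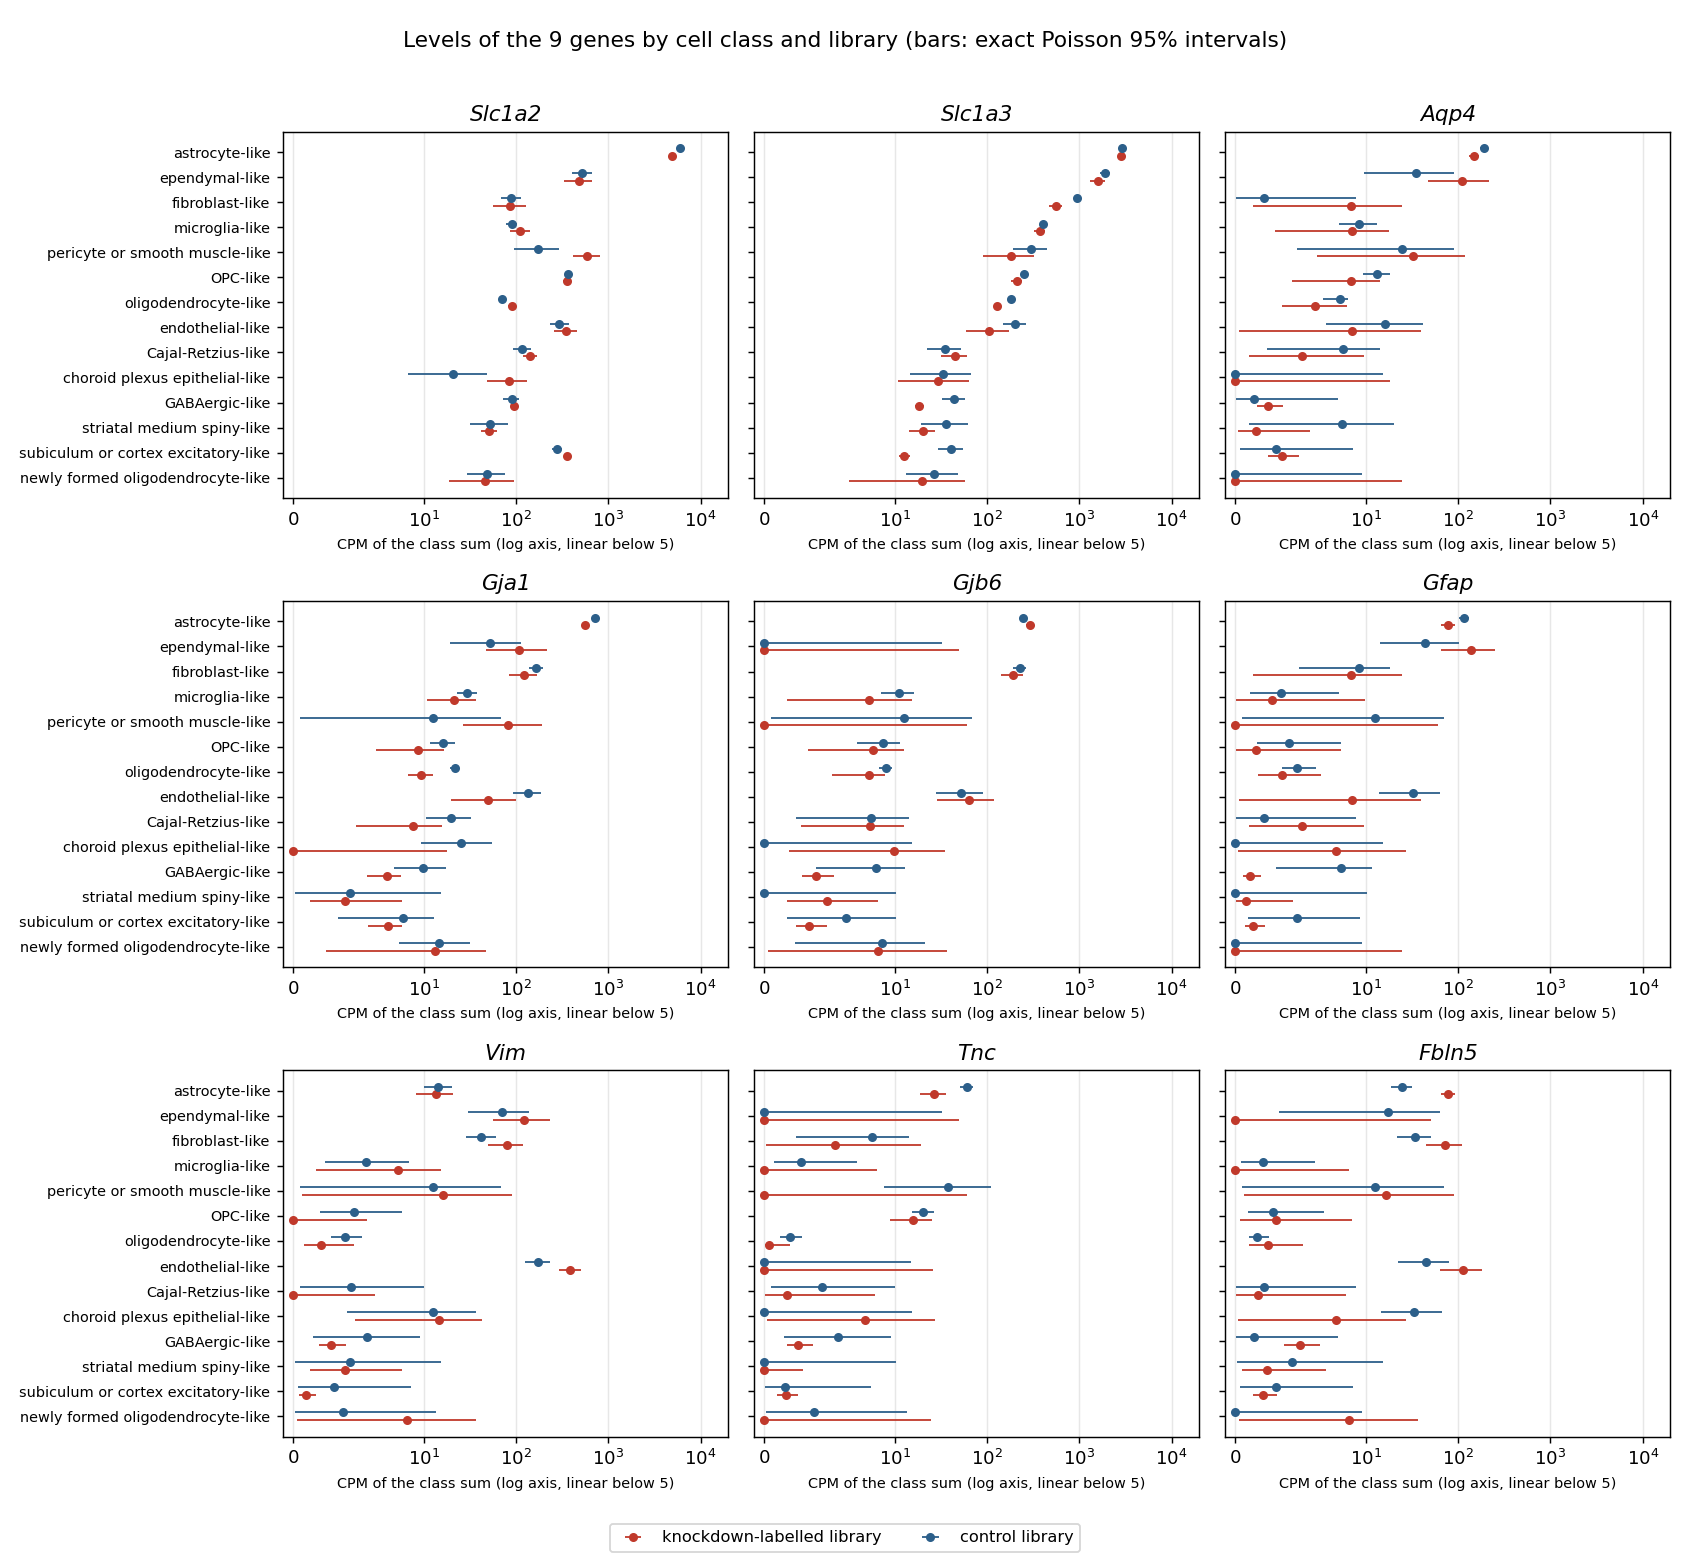
CPM of each gene (log axis, linear below 5) in every named class with at least 20 nuclei in both libraries, with exact Poisson 95% intervals, knockdown-labelled in red and control in blue. In the control library 7 of the panels have their highest point in astrocyte-like nuclei, and the Vim and Fbln5 panels have it in endothelial-like nuclei.

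Outside astrocyte-like nuclei, Slc1a3 was at least 1.5-fold lower in the knockdown-labelled library in 5 of the other 9 classes with at least 50 nuclei in each library. In fibroblast-like nuclei it was at 553 CPM in the knockdown-labelled and 937 CPM in the control library (log2 ratio -0.76, -1.02 to -0.51), where 16.0% of 4394 genes were at least 1.5-fold lower. In subiculum or cortex excitatory-like nuclei it was at 12.7 CPM and 40.9 CPM from 209 and 41 UMIs (log2 ratio -1.68, -2.17 to -1.16; 8.78% of genes lower). In GABAergic-like nuclei it was at 18.4 CPM and 43.9 CPM from 313 and 49 UMIs (log2 ratio -1.26, -1.70 to -0.79; 10.9% lower). The neuronal classes are among the 5 whose median Slc1a3 level, 20.2 and 40.9 CPM, is given below. The part of RNA from other cells in these neuronal levels was not tested. Gja1 was at 9.34 CPM and 21.6 CPM in oligodendrocyte-like nuclei (log2 ratio -1.21, -1.71 to -0.75; 7.79% lower).

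In endothelial-like nuclei Slc1a3 was at 105 CPM and 202 CPM (log2 ratio -0.94, -1.88 to -0.08; 22.8% of genes lower). In striatal medium spiny-like nuclei it was at 20.2 CPM and 36.1 CPM from 40 and 13 UMIs, and the interval of its log2 ratio of -0.84 held 0 (-1.77 to 0.19; 13.7% lower). Gjb6 and Vim were called lower in oligodendrocyte-like nuclei, Gja1 and Gjb6 in GABAergic-like nuclei and Gja1 in OPC-like nuclei (7.33% of genes lower), and of these only the interval of Gja1 in GABAergic-like nuclei excluded 0 (log2 ratio -1.11, -2.03 to -0.05). Fbln5 was called higher in GABAergic-like nuclei, where 16.0% of genes were, from 54 and 1 UMIs (interval of the log2 ratio -0.72 to 7.15). In microglia-like nuclei 3 of the 9 reached 50 UMIs and in Cajal-Retzius-like nuclei 2, and none of these was called, where 28.6% and 31.2% of genes were past 1.5-fold in either direction.

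Over all kept nuclei, all 9 genes were lower in the knockdown-labelled library. The share of all genes that were lower over all kept nuclei is not given here, so this is not read as particular to the 9. A level over all kept nuclei depends on both the share of each class and the level within it. Astrocyte-like nuclei were 4.43% of the kept knockdown-labelled and 5.96% of the control nuclei, and held 1557310 and 2357984 UMIs. How much of each difference over all kept nuclei came from these shares was not tested. Fbln5, higher in astrocyte-like nuclei, was at 4.02 CPM and 5.28 CPM over all kept nuclei, and Tnc at 1.60 CPM and 7.18 CPM. Gfap was at 2.68 CPM and 10.8 CPM and Slc1a2 at 271 CPM and 517 CPM. Slc1a3 was at 98.1 CPM in the knockdown-labelled and 372 CPM in the control library, and Gja1 at 17.4 CPM and 69.7 CPM. The part of RNA from other cells in these levels was not tested. The median over 5 neuronal and oligodendrocyte classes was 20.2 CPM and 40.9 CPM for Slc1a3 and 2.26 CPM and 5.30 CPM for Aqp4, well under their astrocyte-like levels. For Fbln5 this median was 1.52 CPM and 1.40 CPM, and for Tnc 1.04 CPM and 1.23 CPM.

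Vim in endothelial-like nuclei was 1.15 higher on the log2 scale in the knockdown-labelled library (0.55 to 1.76), where 15.2% of 1641 genes were at least 1.5-fold higher. In fibroblast-like nuclei it was at 79.5 CPM (23 UMIs) and 42.2 CPM (30 UMIs), a log2 ratio of 0.91 (0.06 to 1.75; 11.4% of genes higher). Fbln5 had 16 and 11 UMIs in endothelial-like and 21 and 24 UMIs in fibroblast-like nuclei, under the minimum of 50 over both libraries for a call.

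Both libraries held nuclei of each sex, told by UMIs of Y-linked genes or of Xist, and the male and female nuclei of a library come from different mice. Of the knockdown-labelled astrocyte-like nuclei 229 were male and 182 female, and of the control ones 191 and 350. In male nuclei Tnc was at 38.4 CPM in the knockdown-labelled and 36.6 CPM in the control library, from 25 and 26 UMIs (log2 ratio 0.07, -0.78 to 0.92). In female nuclei it was at 17.4 CPM and 72.6 CPM, from 9 and 87 UMIs (log2 ratio -2.06, -3.24 to -1.07). The lower level of Tnc thus stood in the female nuclei, and within the control library Tnc was 1.99-fold higher in female than in male nuclei (log2 ratio 0.99, 0.34 to 1.68).

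Fbln5 was above the control in both sexes. Male nuclei had 76.9 CPM in the knockdown-labelled and 47.8 CPM in the control library (50 and 34 UMIs, log2 ratio 0.68, 0.03 to 1.36). Female nuclei had 79.3 CPM and 18.4 CPM (41 and 22 UMIs, log2 ratio 2.11, 1.33 to 2.93). The knockdown-labelled values of both sexes were close, and within the control library the male level was 2.60-fold the female level. For both matrix genes, male and female control nuclei thus differed by a fold near that between the libraries.

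Gfap was lower in the knockdown-labelled library in both sexes, at 89.2 CPM against 124 CPM in male nuclei (log2 ratio -0.47, -0.98 to 0.02) and 71.5 CPM against 115 CPM in female nuclei (log2 ratio -0.69, -1.25 to -0.15). Slc1a3 pointed in opposite directions, at 2682 CPM against 2896 CPM in male nuclei (log2 ratio -0.11) and 3262 CPM against 2864 CPM in female nuclei (log2 ratio 0.19). Slc1a2 (log2 ratio -0.40 in male and -0.22 in female nuclei), Aqp4 (-0.33 and -0.31) and Gja1 (-0.49 and -0.17) were below the control in both sexes. Gjb6 was above it in female nuclei (0.48) and at 0.05 in male nuclei.

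**Figure D3:**
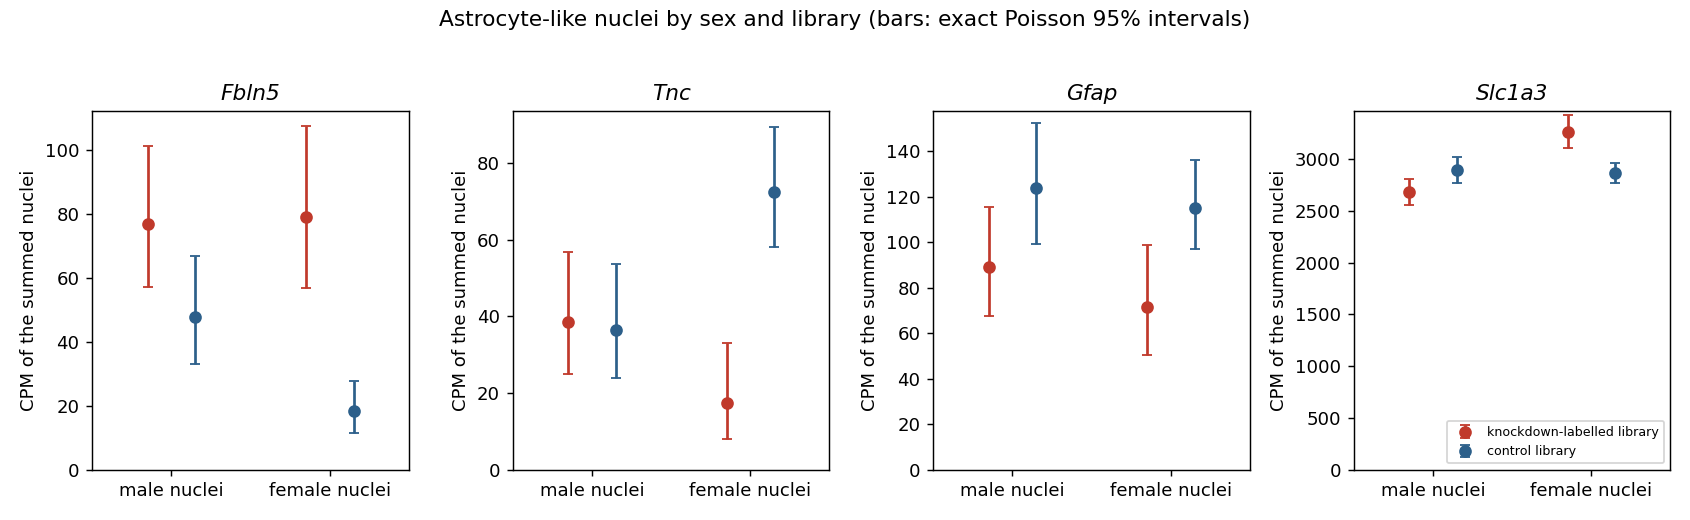
CPM of Fbln5, Tnc, Gfap and Slc1a3 in male and female astrocyte-like nuclei of the knockdown-labelled (red) and control (blue) library, with exact Poisson 95% intervals and axes from 0. The Tnc points of the male nuclei, 38.4 and 36.6 CPM, lie together, and those of the female nuclei, 17.4 and 72.6 CPM, lie apart.

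Astrocyte-like nuclei were also divided further, again without the 9 genes and with each library centred, into 6 subclusters of at least 20 nuclei in each library and 1 of 1 and 20 nuclei led by oligodendrocyte genes. The subclusters are named by their leading genes, their borders depend on the resolution, and their sizes are not compared. Gfap varied among them: in the control library it was at 189 CPM in the subcluster led by Gm31614 and Gm49164 and at 148 CPM in that led by Thbs4, a thrombospondin. It was at 41.3 CPM in the subcluster led by Fam227b and Gabbr2 and at 27.9 CPM (6 UMIs) in that led by B230323A14Rik and Hr. The knockdown-labelled library had the same order in these 4, at 140.0, 96.1, 31.0 and 14.6 CPM, the last from 2 UMIs. The subcluster led by Adgrv1 and Veph1 had 149 CPM of Gfap in the control and 113 CPM in the knockdown-labelled library. In the subcluster led by Zic4 and Efna5 the order did not hold, with 94.2 CPM (9 UMIs) in the control and no Gfap UMI in the knockdown-labelled library (interval up to 45.3 CPM).

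Tnc was highest in the subcluster led by Adgrv1 and Veph1. Its 43 control nuclei held 46 of the 142 Tnc UMIs, at 327 CPM (interval 239 to 436), and its 31 knockdown-labelled nuclei held 7 UMIs at 78.8 CPM. This subcluster had little Aqp4, at 33.8 CPM and 14.2 CPM from 3 and 2 UMIs, and little Gjb6, at 146 CPM and 49.8 CPM. In the Gm31614 subcluster Tnc was at 71.6 CPM and 73.2 CPM in the 2 libraries (log2 ratio -0.03, -0.87 to 0.77), and in the Thbs4 subcluster at 13.5 CPM and 42.6 CPM (log2 ratio -1.66, -3.09 to -0.46). The Tnc difference was thus uneven over the class. Of the nuclei with a sex in the Adgrv1 subcluster, 28 were female and 8 male in the control and 9 and 14 in the knockdown-labelled library. The Tnc values by sex and by subcluster are therefore not separate, and the part of each was not tested. Without this subcluster the log2 ratio of Tnc in the class was -0.903 (-1.512 to -0.325).

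In this division Fbln5 was highest in the B230323A14Rik subcluster, the one with the most Itih3, a heavy chain of the inter-alpha-trypsin inhibitor. There it was at 262 CPM (36 UMIs) in the knockdown-labelled and 60.5 CPM (13 UMIs) in the control library, a log2 ratio of 2.11 (1.17 to 3.15). Slc1a2 was lowest in this subcluster, at 1981 CPM and 2832 CPM, against 5495 CPM and 7085 CPM in the Thbs4 subcluster. Fbln5 and Gjb6 were above the control in 6 of 6 subclusters, and Gfap and Slc1a2 below it in 6 of 6. Tnc was below it in 4 and above it in 0. It had 0 and 1 UMIs in the B230323A14Rik subcluster and none in the Zic4 subcluster, so no ratio was given there. Slc1a3 was above the control in 2 and below it in 4. These counts include subclusters with few UMIs, and the nuclei of all subclusters come from the same 2 libraries. The Gjb6 interval excluded 0 only in the Adgrv1 subcluster. In a finer division (resolution 1.0), Gjb6 was below the control in the subcluster led by Car10 (262 against 289 CPM). Gfap was above it in that led by Pde10a (71.5 against 64.1 CPM). Control Fbln5 was then highest in the subcluster led by Thbs4 and 1700003D09Rik (117 against 99.2 CPM). In the B230323A14Rik subcluster it was at 277 against 60.1 CPM.

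**Figure D4:**
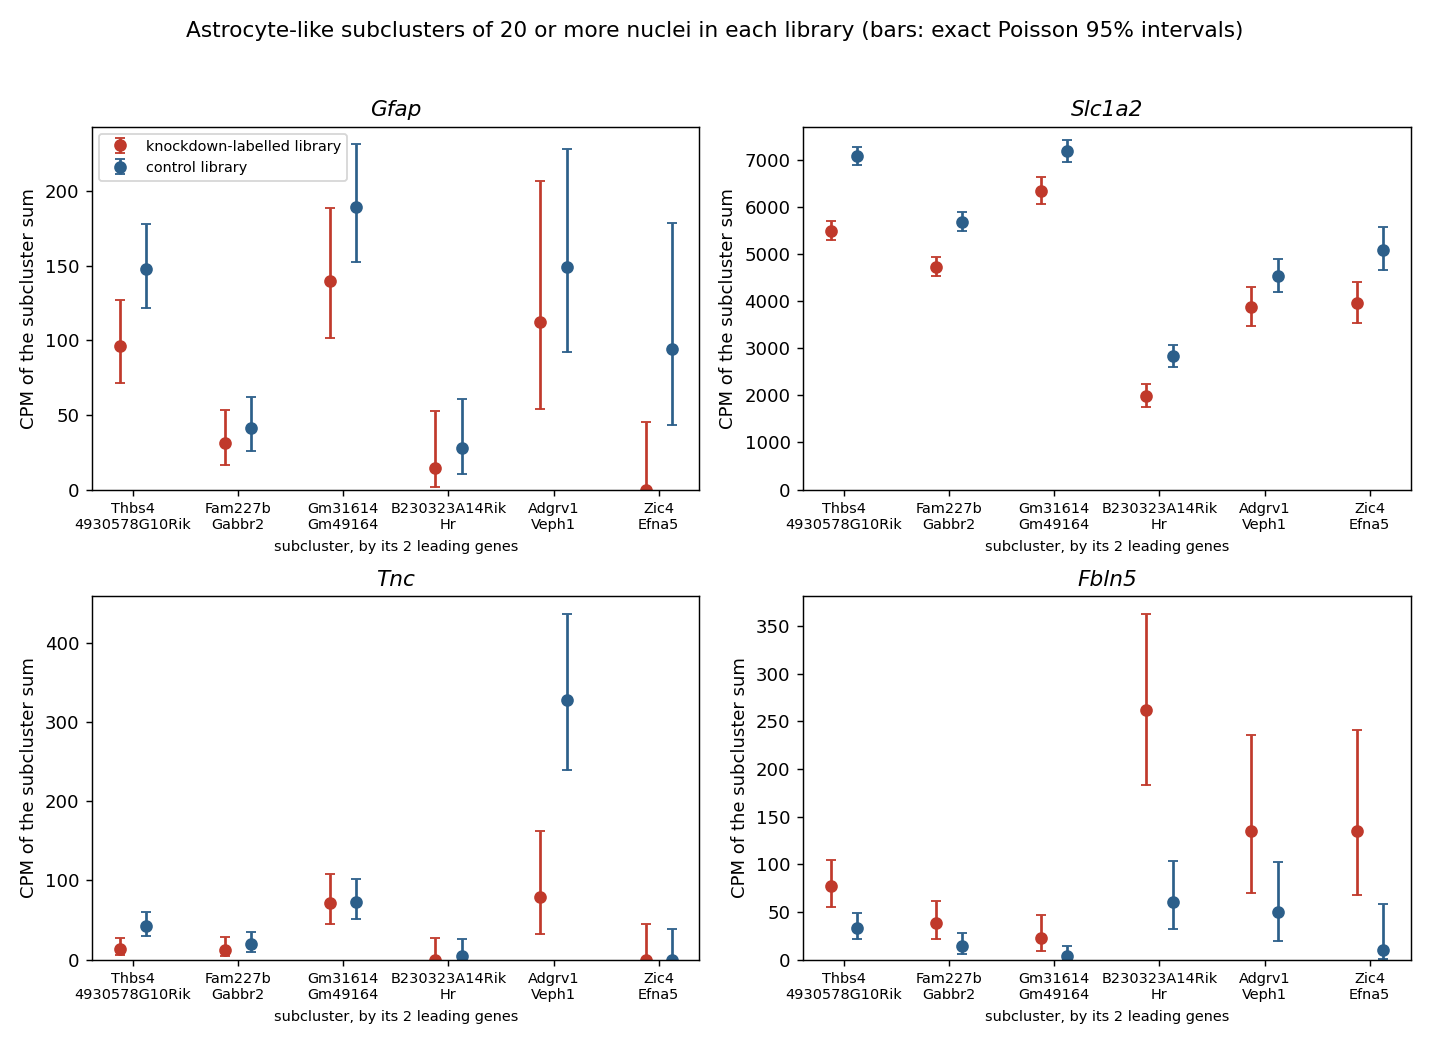
CPM of Gfap, Slc1a2, Tnc and Fbln5 in the 6 astrocyte-like subclusters, named by 2 leading genes, in the knockdown-labelled (red) and control (blue) library with exact Poisson 95% intervals. The highest Tnc point is the control value of 327 CPM in the Adgrv1 subcluster, and the highest Fbln5 point is the knockdown-labelled value of 262 CPM in the B230323A14Rik subcluster.

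Other genes of the same functions were taken from 7 lists. The counts of called genes in each list stand beside the same shares as above: 14.2% of all 9557 genes in this class were at least 1.5-fold higher and 6.51% at least 1.5-fold lower. Of 16 genes of glutamate and GABA handling, 13 reached 50 UMIs, and 3 were higher, 1 lower and 9 within 1.5-fold, with a median log2 ratio of -0.21 against 0.04 for all genes. The higher ones were Slc1a1 (32.7 CPM against 8.91 CPM), a neuronal glutamate transporter, Grm5 (275 against 106 CPM), a metabotropic glutamate receptor, and Got1 (39.2 against 17.0 CPM), an aspartate aminotransferase. The glycine transporter Slc6a9 was lower, at 21.2 CPM against 45.0 CPM. Syt1 and Snap25 RNA was also higher in these nuclei, and the part of neuronal RNA in the values of Slc1a1 and Grm5 was not tested.

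Of 20 genes for water, potassium and the endfoot, 19 reached 50 UMIs, none was at least 1.5-fold higher and 2 were lower, with a median log2 ratio of -0.19. The lower ones were Kcnj10, the inward rectifier potassium channel Kir4.1 (56.5 CPM against 101 CPM), and Slc12a2, a sodium, potassium and chloride cotransporter (23.8 against 55.1 CPM). Of 14 connexin, pannexin and junction plaque genes only 3 reached 50 UMIs, with a median log2 ratio of -0.59. Gjc3, an oligodendrocyte connexin (17.3 against 93.3 CPM), and Tjp1, the plaque protein ZO-1 (383 against 574 CPM, log2 ratio -0.59, just past the 1.5-fold line), were lower. The oligodendrocyte marker RNA given above was also lower in these nuclei, and its part in the Gjc3 value was not tested.

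Most genes known from reactive astrocytes were near the limit of detection. Of 34 such genes besides the 9, 31 had under 50 UMIs, and Steap4, Timp1, Ugt1a1 and B3gnt5 had none in either library. Lcn2 had 1 and 0 UMIs and Serpina3n 18 and 11. Of the 3 that could be called, Fkbp5, a glucocorticoid-induced chaperone partner, was higher at 117 CPM against 64.0 CPM, Aspg, an asparaginase, was lower at 9.63 against 17.8 CPM, and H2-D1, a class I histocompatibility gene, was within 1.5-fold at 26.3 against 18.2 CPM. The median log2 ratio of these 3 was 0.53, and it was below 0 with doublets kept (-0.13, 4 genes) and with a minimum of 20 UMIs (-0.04, 8 genes).

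Of 28 genes of JAK-STAT3 signalling and glial transcription, 21 reached 50 UMIs, and 1 was higher and 4 lower, with a median of -0.07. Id3, an inhibitor of helix-loop-helix factors, was higher (128 against 82.7 CPM). The kinases Tyk2 (14.8 against 26.3 CPM) and Jak2 (41.7 against 64.9 CPM) and the cytokine receptor subunit Il6st (26.3 against 41.1 CPM) were lower. Of 14 intermediate filament and linker genes 5 reached 50 UMIs, and Nefl, the neurofilament light chain (46.9 against 6.79 CPM), and the linker Plec (41.1 against 23.3 CPM) were higher, with a median of 0.52. Nefl is a neuronal gene, and Syt1 and Snap25 were also higher in these nuclei. The part of neuronal RNA in the Nefl value was not tested.

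Of 31 genes of the matrix and its receptors, 18 reached 50 UMIs, and 2 were higher and 2 lower, with a median log2 ratio of -0.09. Fbln1, the fibulin-1 gene, was at 31.5 against 18.2 CPM, and Tnr, the tenascin-R gene, at 64.9 against 38.2 CPM. The proteoglycans Vcan (14.1 against 41.1 CPM) and Ncan (57.8 against 96.3 CPM) were lower. Vcan was also a leading gene of the OPC-like cluster. The summed OPC markers in astrocyte-like nuclei were at 76.4 against 150 CPM, and the part of OPC RNA in the Vcan value was not tested. The other fibulin genes were not called: Efemp1 (fibulin-3) was at 25.7 against 23.3 CPM and Efemp2 (fibulin-4) at 14.8 against 11.4 CPM, and Fbln2 had 4 and 10 UMIs. Efemp1, Efemp2 and Fbln2 were named after their values were seen.

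Over the 21 pairs of class and library with at least 50 nuclei, the level of Gja1 followed that of Gjb6 most closely (Pearson r 0.95 of log2(CPM + 5)), and the genes most like Gfap were Prdx6 (0.95), Clu (0.94) and Bmpr1b (0.93). Aqp4 was most like Pla2g7 (0.96), Slc1a2 like Plcd4 (0.94) and Slc1a3 like Pbxip1 (0.91). Vim was most like Id1 (0.98), Fbln5 like Id3 (0.95) and Tnc like Gm20713 (0.94). These pairs share libraries and depth, so the values are descriptions and have no p-value.

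Among single nuclei thinned to 1000 UMIs, those with a Gfap UMI (40 knockdown-labelled and 60 control) were set beside those without (504 and 604). Slc1a2 was higher with Gfap in the control library, at 7183 against 5937 CPM (log2 ratio 0.27, 0.13 to 0.42), and was at 4950.0 against 4954 CPM in the knockdown-labelled library. Of the other members none had an interval that excluded 0 in either library. Itih3 was lower in nuclei with Gfap in both libraries, at 450.0 against 726 CPM and 250.0 against 627 CPM.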

How the data were processed

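The authors deposited raw UMI counts per gene and barcode. Per the file headers they come from Cell Ranger 9.0.1, and the submitters' processing notes list bcl2fastq 5.0.1, Seurat 4.1.0 and GRCm39. Per the labels' protocols, nuclei were stained with propidium iodide and sorted before a 3' kit that expected 8000 nuclei. Nuclei with at least 500 genes, 800 UMIs and under 5% mitochondrial UMIs were kept. Scrublet marked 1046 doublets (7.79%) in the knockdown-labelled library. In the control its threshold marked 2 nuclei, so the top scores at the expected rate were removed, 1331 nuclei (10.6%). Clusters were found without the 9 genes (scanpy 1.11.5, 2000 variable genes, 30 components, Leiden resolution 1) and named from 221 markers. Counts were summed per library and class, with exact Poisson, Clopper-Pearson or conditional binomial intervals. A ratio was called past 1.5-fold with at least 50 UMIs over both libraries. The ratio script was tested on simulated data. TMM factors came from edgeR 4.0.16. The 9 genes, the lists and the markers were chosen with earlier results of these data known. Named genes were the 9, in each list the 3 highest and 3 lowest called genes, and the 3 genes most like each of the 9, of which the text gives the first or more. Genes named outside this rule (uncalled reactive and fibulin genes, Itih3 and the genes that lead clusters) were chosen after their values were seen. Alternatives changed filters, doublets, clustering, scaling, depth, RNA background and sex.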

Additional observations from a re-analysis of the deposited data

Results flagged for a closer look

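The ratio of 2 genes between the libraries pointed one way in male and the other way in female astrocyte-like nuclei. For Tnc the log2 ratio was 0.07194 in male and -2.061 in female nuclei. For Slc1a3 it was -0.111 in male and 0.1878 in female nuclei. With 1 library per group the difference between the sexes was not tested, and the male and female nuclei of a library are also different mice, so sex and animal cannot be told apart. The Tnc-rich subcluster led by Adgrv1 and Veph1 held 28 female and 8 male control nuclei and 9 and 14 knockdown-labelled ones. Its part in the Tnc values by sex was not tested.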

How the results depend on the processing

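No paired analysis was possible because each group has 1 library. Over 17 alternatives, 4 of them chosen after seeing the data, the log2 ratio of Fbln5 ran from 0.685 to 2.11 and was past 1.5-fold in 17. Tnc was at least 1.5-fold lower in 16, the exception being male nuclei alone (0.07194), and Gfap lay between -0.687 and -0.245 and past 1.5-fold in 6. Slc1a2, Aqp4 and Gja1 stayed below 0 and Gjb6 above 0 in all 17, while Slc1a3 was above 0 in 4 and below in 13 and Vim above in 3 and below in 14. The count of genes at least 1.5-fold lower was 0 in male nuclei alone. It was 2 (Tnc and Gfap) with the looser filter, TMM scaling, female nuclei alone, or without the Veph1-rich subcluster, the Veph1-rich, Itih3-rich and Cd44-rich subclusters, or the subcluster led by oligodendrocyte genes, and 2 (Tnc and Gja1) after thinning. TMM scaling moved the median log2 ratio of all genes from 0.04 to -0.07. The median of the reactive astrocyte list was -0.1325 with doublets kept (4 genes), 1.461 in female nuclei alone (1 gene) and -0.04 with a minimum of 20 UMIs (8 genes). The cause of these changes was not tested.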
